A study of Mus musculus with 24 samples.

Results

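Female and male airway cultures were compared at the end of a course of cigarette smoke, over every autosomal gene that averaged 10 or more normalised counts in the 12 smoke-exposed libraries. This rule kept 12933 of the 24036 autosomal genes in the deposited table, which holds 25239 genes in all. The values came from RNA sequencing of tracheal epithelial cells of 7- to 8-week-old wild-type mice of the FVB/NJ strain. The cells were expanded, spent 10 to 14 days differentiating at an air-liquid interface, and were then held for 10 days under smoke (6 female and 6 male inserts) or humidified air (6 female and 6 male inserts). An exposure burned 2 cigarettes for about 8 minutes. The main comparison used the 6 female smoke and 6 male smoke inserts, and the air inserts served as the matched background. An insert is a porous support that carries a culture, and the labels name no donors. All inserts of a sex may therefore have been seeded from a single cell preparation and be technical replicates. The p-values then reflect insert-to-insert spread alone, and sex and cell preparation cannot be told apart. Genes just inside the limit were Stac3 (mean 10.0) and Fbxo48 (10.0), and Lmcd1 (9.96) lay just outside.

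Tracheal epithelium is built from basal cells, which carry keratins 5 and 14 and renew the layer, and from the club, goblet and multiciliated cells that derive from them. Club cells secrete secretoglobins and detoxify inhaled chemicals, and multiciliated cells move mucus. Under lasting injury, including smoke, airway epithelium can take on squamous features, in which cells make stratified-epithelium keratins and the cross-linked protein shell called the cornified envelope. In these bulk samples, fewer cells of a type and less RNA per cell cannot be told apart.

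Sex-linked genes matched the labels in 12 of 12 smoke libraries. Xist ranged from 4915 to 16401 normalised counts in the female smoke libraries and from 4.94 to 10.6 in the male ones, and Ddx3y, Eif2s3y, Kdm5d and Uty held no reads in 6 of 6 female libraries. Depth ran from 16454306 to 24406742 reads in the 11 smoke libraries whose whole counts were recovered. Female smoke insert 4 stood apart. Its deviation from the group's typical value across genes had a Spearman correlation of -0.440 with transcript length, genes whose transcripts measured 1606 bases or less had a median deviation of 0.62 (log2), and 3341 genes deviated by over 2-fold, against 387 to 1396 in the other 11 libraries. Counts are therefore given without this insert as well where it changed them most. The male smoke inserts also split by number. Inserts 1 to 3 (16.2 to 35.9) and 4 to 6 (-30.6 to -27.4) separated on the third principal component, which held 7.0% of the variance. Female smoke inserts 1 to 3 (0.28 to 18.3) and 4 to 6 (-10.5 to 1.93) overlapped there but split for some genes, such as Scgb1a1 below. Male air inserts 1 to 3 and 4 to 6 split for motile cilia genes (1.31 to 1.48 against 0.55 to 0.88, log2 relative to the smoke mean). Values from inserts 1 to 3 and 4 to 6 alone are given for the lists where they differ most. Inserts 4 to 6 include female smoke insert 4.

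The comparison asks how far the smoke-exposed epithelium of the sexes differed. Differences below are female minus male on the scale of log2(normalised count + 1), with a standard error (SE, n = 6 per group), and a gene was called at a limma adjusted p under 0.05. Of the 12933 autosomal genes, 3882 were called, a background of 30.0% that any group of genes must be read against. Of these, 2059 were higher in female cells (15.9%) and 1823 lower (14.1%). Without female smoke insert 4 the call count was 5021 (38.8%), with 2606 higher (20.2%) and 2415 lower (18.7%), and 3790 of the 3882 were called with the same sign. The median absolute difference was 0.83 over the called genes and 0.31 over all genes tested. A difference of at least 2-fold was seen in 1622 called genes (12.5%), of which 969 were higher in female cells, and 567 differed by at least 4-fold. In 2280 genes (17.6%) the 6 female and 6 male libraries did not overlap, with the female libraries above in 9.61% and the male in 8.02% of all genes. Scaling each library to its total moved the median of all genes by -0.15 and turned the split to 1503 higher and 3114 lower, and quantile scaling turned it to 1840 and 2242, so the split of directions depends on the scaling. The share called ran from 24.8% on chromosome 17 to 36.4% on chromosome 6.

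Among the 10 named genes furthest on the female side were the envelope enzyme Tgm3, the chitinase Chit1, the transcription factor Sim2 and 3 genes of the Hoxc cluster, described further on. Among the 10 named genes furthest on the male side were the club cell product Scgb1a1 and the lung endoderm factor Gata6. Tgm3 (mm10 chromosome 2, 130012340 to 130050399), a transglutaminase that cross-links the cornified envelope, ranged from 1646 to 7795 (median 3994) in female and 8.31 to 15.8 (median 9.85) in male libraries. The groups were far apart, and the difference of 8.53 ± 0.32 (adjusted p = 1.77e-09) was the largest of the genes open to naming. These were called with and without female smoke insert 4, had no overlap and averaged 50 or more in the higher group. Of 2080 such genes, 52 were predicted gene models, which were left out of the ranking. Chit1 (mm10 chromosome 1, 134111242 to 134151540), the chitin-splitting enzyme chitotriosidase, ranged from 687 to 1072 (median 786) in female and 0.810 to 7.77 (median 3.43) in male libraries, a difference of 7.49 ± 0.33 (adjusted p = 1.18e-08). Sim2 (mm10 chromosome 16, 94085260 to 94127032), a basic helix-loop-helix transcription factor, ranged from 971 to 1582 (median 1457) in female and 9.72 to 22.2 (median 12.8) in male libraries, a difference of 6.48 ± 0.21. The protease inhibitor Pi15 ranged from 243 to 471 (median 325) in female and 0 to 3.53 (median 1.30) in male libraries, a difference of 7.12 ± 0.36. AA467197 differed by 7.43 ± 0.52, with 217 to 627 normalised counts in female libraries and reads in 3 of 6 male ones. Crct1, a gene of the epidermal differentiation complex, differed by 6.76 ± 0.73, by 4.73 in inserts 1 to 3 and by 8.78 in inserts 4 to 6. Wfdc12, a small secreted protease inhibitor, stood at 38.6 to 265 (median 131) in female libraries and had reads in 2 of 6 male ones. No female library overlapped a male one for these genes, which was a condition of being open to naming.

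The genes lowest in female cells, among those open to naming, had smaller differences. Scgb1a1 (mm10 chromosome 19, 9083642 to 9087956), the main club cell secretoglobin, ranged from 14.4 to 862 (median 249.8) in female and 1539 to 6742 (median 4084) in male libraries. Female inserts 4 to 6 (14.4, 36.5 and 61.1) were far below inserts 1 to 3 (439, 862 and 617), and the overall difference was -4.67 ± 0.92 (adjusted p = 0.00211). Gata6, a zinc-finger transcription factor of lung endoderm, ranged from 12.9 to 52.5 (median 25.8) in female and 292 to 389 (median 341) in male libraries, a difference of -3.72 ± 0.27 (adjusted p = 7.63e-07). Gpx3, a secreted glutathione peroxidase, ranged from 30.8 to 68.3 (median 36.1) in female and 345 to 884 (median 599.6) in male libraries, a difference of -3.86 ± 0.27. Dclk1, a microtubule-linked kinase also used to mark tuft cells, ranged from 30.0 to 171 (median 102) in female and 852 to 1762 (median 1319) in male libraries, a difference of -3.88 ± 0.40. It does not stand for the tuft cell genes, of which 1 of 6 tested was lower and none higher. In that list 2 differences were positive, and 2 genes were higher and 1 lower without female smoke insert 4. The integrin subunit Itga9 (-4.09 ± 0.43), the semaphorin receptor Plxna4 (-3.92 ± 0.60), the adhesion receptor Adgrf5 (-3.83 ± 0.38), the actin-binding protein Hcls1 (-3.76 ± 0.54), Rgcc (-4.12 ± 0.36) and the fetal serum protein Afp (-4.13 ± 0.57) completed the 10 lowest of the genes open to naming. Afp stood at 165 to 322 in male inserts 1 to 3 and at 39.95 to 56.7 in male inserts 4 to 6. These 10 and the 10 highest were called under every alternative run for them, each with the same sign. Keeping the call without female smoke insert 4 was a condition of being open to naming.

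**Figure D1:**
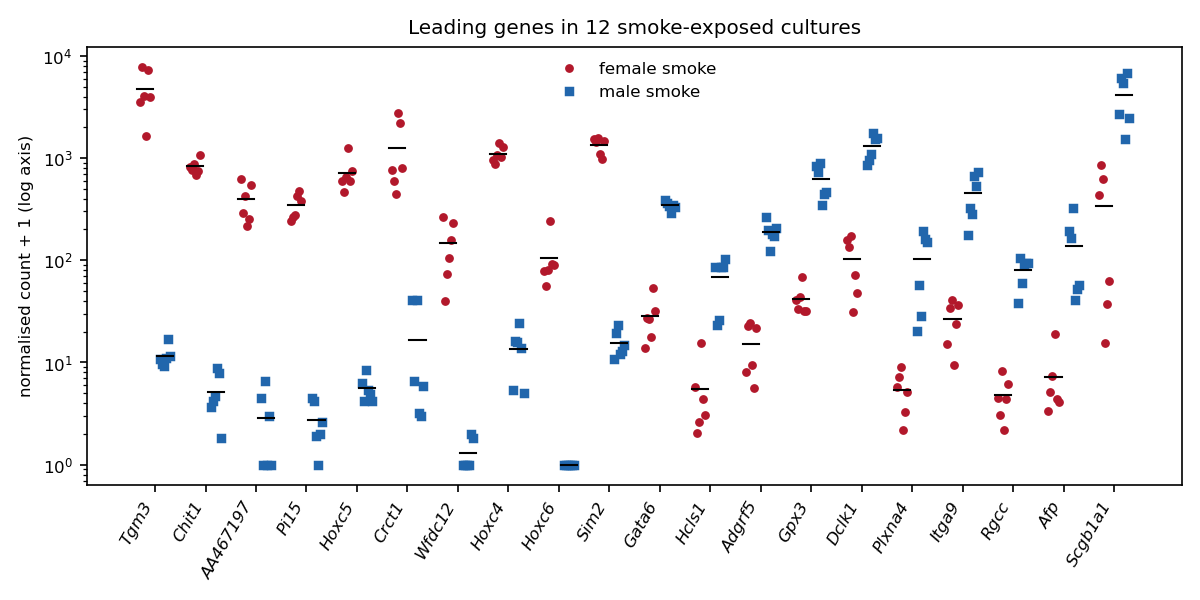
Normalised counts plus 1 on a log axis for the 10 highest and 10 lowest of the genes open to naming, predicted gene models left out, 1 point per smoke-exposed library, with lines at the means of 6 female and 6 male libraries. Tgm3 sits between 1646 and 7795 in female libraries and between 8.31 and 15.8 in male ones, and Gata6 and Scgb1a1 show the opposite order.

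The squamous and keratinization genes had the largest median difference of the gene lists described here. Of 31 members tested, 23 were higher in female cells and 1 was lower, in a background of 15.9% and 14.1%, with a median difference of 2.48 against -0.0026 over all autosomal genes. Without female smoke insert 4 the counts were 23 and 2, and inserts 1 to 3 and 4 to 6 alone gave 20 higher each. Krt13 (mm10 chromosome 11, 100117328 to 100121566), a keratin of stratified non-cornified epithelium, ranged from 246739 to 335284 (median 278972) in female and 3756 to 19683 (median 13396) in male libraries. It took a median of 1.42% of all normalised counts in female and 0.073% in male libraries, and differed by 4.60 ± 0.34 (adjusted p = 8.04e-07). Its partner Krt4 ranged from 95222 to 169378 (median 99919) in female and 3885 to 17290.0 (median 14532) in male libraries, a difference of 3.31 ± 0.34. The keratins Krt6b (5.0 ± 0.33) and Krt6a (1.85 ± 0.33), which accompany wounding and fast renewal, were higher as well, though these are close copies whose reads may have been split. Ly6d (mm10 chromosome 15, 74762056 to 74763567), a surface protein of keratinocytes, ranged from 6264 to 9979 (median 8389) in female and 65.5 to 151 (median 94.8) in male libraries and differed by 6.34 ± 0.19 (adjusted p = 1.8e-10), with each group tight within itself.

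The small proline-rich proteins, which the transglutaminases cross-link into the envelope, showed the same order. Sprr2d ranged from 634 to 3340.4 (median 2466) in female and 10.3 to 67.7 (median 19.4) in male libraries, a difference of 6.15 ± 0.52 (adjusted p = 2.43e-06). Sprr2f ranged from 312 to 3100.4 (median 987) in female and 11.3 to 47.7 (median 17.0) in male libraries, a difference of 5.43 ± 0.51. No female library overlapped a male one for either gene. Sprr2g (3.93 ± 0.61), Sprr3 (3.67 ± 0.86), Sprr2h (2.90 ± 0.51), Sprr2e (2.48 ± 0.59) and Sprr2a3 (2.05 ± 0.37) were also higher. The Sprr2 genes are close copies, so reads may have been split between them and their single values are uncertain. Tgm1 (2.0 ± 0.27), the membrane-bound transglutaminase, and the envelope or keratinocyte proteins Cnfn (4.46 ± 0.63), Krtdap (5.12 ± 0.85), Rptn (3.03 ± 0.51) and Dmkn (2.83 ± 0.34) stood higher too. The exception was Cst6, the protease inhibitor cystatin E/M, at 15.6 to 113 (median 42.4) in female and 238 to 919.6 (median 578) in male libraries, a difference of -3.52 ± 0.49 (adjusted p = 0.000154). Ivl, Sprr1a, Sprr1b, Sprr2k, Lor, Sbsn and Krt1 were tested and not called.

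The stretches just upstream are shown for 3 copies on chromosome 3 and for other genes of the list. Each line gives the 100 bases before the RefSeq gene start on the gene's own strand (GRCm38.p6), with capitals marking TATAAA or TGANTCA wherever either was found on either strand. Sprr2d (chr3:92339040-92339139, plus strand), Sprr2f (chr3:92365087-92365186, plus strand) and Sprr2h (chr3:92385585-92385684, plus strand) are neighbouring copies. Tgm3 (chr2:130012240-130012339, plus strand) and Krtdap (chr7:30787805-30787904, plus strand) are called genes on other chromosomes, and Ivl (chr3:92573736-92573835, minus strand), which encodes involucrin, was not called.
Sprr2d: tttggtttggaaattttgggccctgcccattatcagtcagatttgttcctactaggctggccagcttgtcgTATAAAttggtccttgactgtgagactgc
Sprr2f: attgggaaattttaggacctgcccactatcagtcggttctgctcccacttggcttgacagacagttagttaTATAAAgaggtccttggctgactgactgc
Sprr2h: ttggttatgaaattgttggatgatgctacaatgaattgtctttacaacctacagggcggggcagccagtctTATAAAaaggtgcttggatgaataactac
Tgm3: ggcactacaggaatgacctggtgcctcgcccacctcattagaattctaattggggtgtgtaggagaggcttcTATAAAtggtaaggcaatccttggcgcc
Krtdap: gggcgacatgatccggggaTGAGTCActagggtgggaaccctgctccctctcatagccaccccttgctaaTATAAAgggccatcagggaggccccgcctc
Ivl: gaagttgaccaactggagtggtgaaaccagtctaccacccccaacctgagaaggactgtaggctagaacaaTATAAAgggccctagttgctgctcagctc
TATAAA, the core of a TATA box, began at position -29 from the start in the 3 Sprr2 genes and in Ivl, at -28 in Tgm3 and at -30 in Krtdap. Of 22 listed genes with a RefSeq promoter, 16 were higher in female cells, and 9 of these (56.2%) held TATAAA in this window. So did 5 of the 6 that were not called (83.3%), against 1827 of all 32851 promoters (5.56%). TGANTCA, the letters to which AP-1 factors bind, was in 3 of the 16 (18.8%), among them Krtdap, in 1 of the 6 (16.7%) and in 897 of all promoters (2.73%). The TATAAA letters were thus found in listed genes that were called and in ones that were not, and the shares were not tested against each other. Among the other Sprr2 copies, Sprr2e and Sprr2k held TATAAA at -29, and Sprr2a3, which was higher in female cells, held none. A match describes letters and not a bound site.

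**Figure D2:**
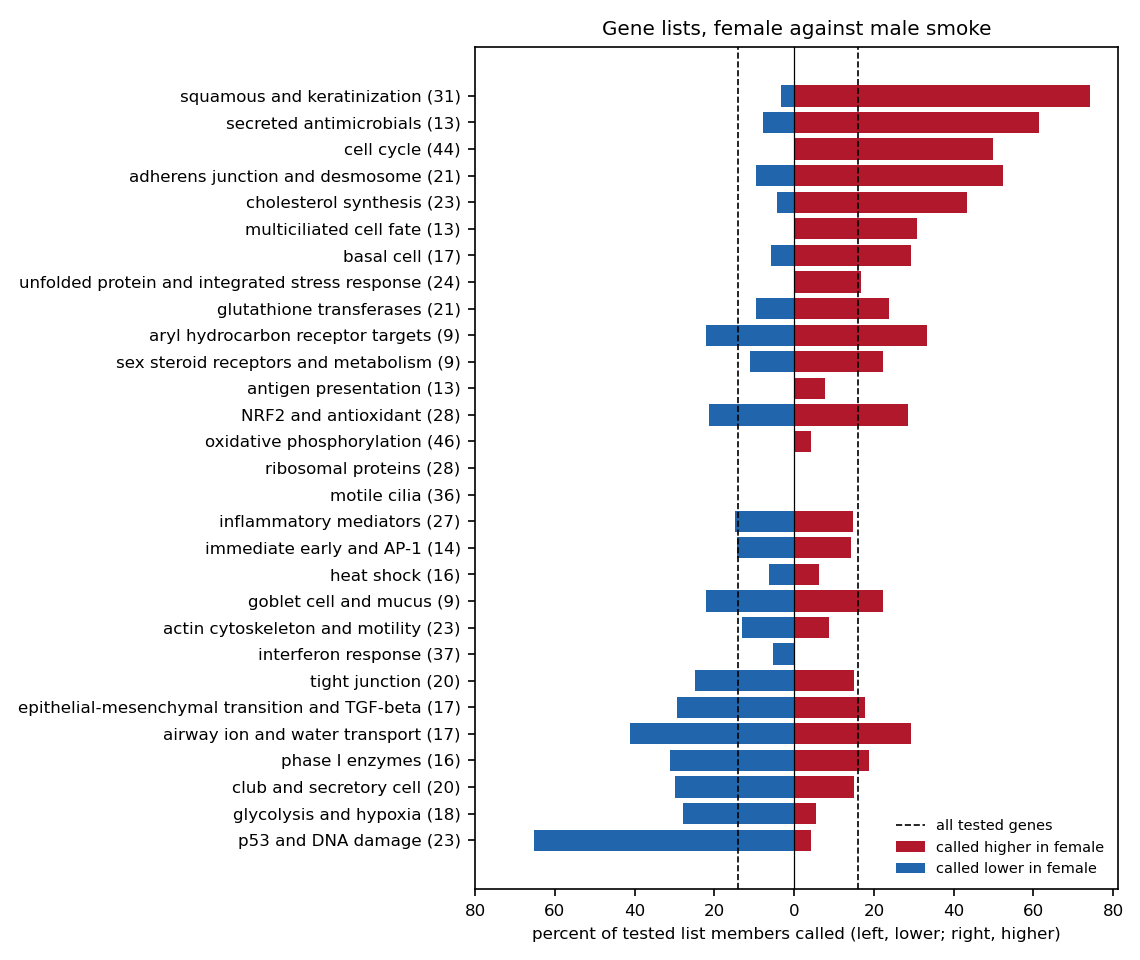
Percent of tested members higher (right) and lower (left) in female smoke libraries for each gene list with at least 9 tested members, whose number is in parentheses. The dashed lines mark the background of 15.9% higher and 14.1% lower over all 12933 genes, and the squamous list lies far to the right and the p53 list far to the left.

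Genes that anchor the layer were higher in female cells to a lesser degree. Of 21 adherens junction and desmosome genes, 11 were higher and 2 lower, in a background of 15.9% and 14.1%, with a median of 0.75. The desmosomal cadherins Dsc3, at 1596 to 2935 (median 2221) in female and 171 to 324 (median 231) in male libraries, and Dsg3 differed by 3.26 ± 0.17 and 1.79 ± 0.32. The plakin linkers Evpl (2.08 ± 0.30), Dsp (1.19 ± 0.18) and Ppl (0.93 ± 0.22) and the plaque proteins Pkp1 (1.80 ± 0.23), Jup (1.06 ± 0.16) and Pkp3 (0.75 ± 0.11) followed. Nectin4 (2.22 ± 0.20) was higher and Nectin3 (-2.40 ± 0.35) lower, so the nectin adhesion receptors did not move as a block. Of 17 basal cell genes, 5 were higher and 1 lower, in a background of 15.9% and 14.1%. The basal keratin Krt5 ranged from 126048 to 209524 (median 167516) in female and 44078 to 99535 (median 76530.1) in male libraries, a difference of 1.18 ± 0.25 (adjusted p = 0.0037). Krt14 (1.21 ± 0.28), the hemidesmosome proteins Dst (1.28 ± 0.17) and Col17a1 (1.12 ± 0.21), and the basal cell regulator Trp63 (0.72 ± 0.18) were also higher. The mucin-like protein Pdpn went the other way, at 262 to 388 (median 335) in female and 1245 to 2161 (median 1771) in male libraries, a difference of -2.37 ± 0.15.

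Secreted host-defence proteins were higher in female cells in 8 of 13 tested genes and lower in 1, with a median of 1.84. The background was 15.9% higher and 14.1% lower, and 8 of these genes were higher without female smoke insert 4. Chil1 (mm10 chromosome 1, 134182156 to 134190031), a chitinase-like protein without enzyme activity, ranged from 485 to 9508 (median 3099.7) in female and 4.42 to 111 (median 33.3) in male libraries, a difference of 6.43 ± 0.90 (adjusted p = 0.000162). Female inserts 4 and 5 (712 and 485) lay several-fold below inserts 1, 3 and 6 (4633, 9508 and 6492) but above every male one. Defb14, a beta-defensin, was at 57.6 to 276 in female libraries and had no reads in male inserts 4 to 6, a difference of 6.19 ± 0.46. S100a9 ranged from 306 to 2555 (median 2143) in female and 12.1 to 47.7 (median 15.7) in male libraries, a difference of 5.93 ± 0.56, and its partner S100a8, with which it forms calprotectin, differed by 4.0 ± 0.73. The bacterial wall sensor Pglyrp4 (4.25 ± 0.31), Chil4 (4.62 ± 0.46) and Defb1 (1.11 ± 0.24) were higher too. Ltf, the iron-binding lactoferrin, took a median of 1.93% of all normalised counts in female and 0.587% in male libraries and differed by 1.84 ± 0.36. Lcn2 was lower, with a difference of -1.44 ± 0.51 (adjusted p = 0.0496), and this call was lost without female insert 2, 4, 5 or 6 or any 1 of male inserts 2 to 6.

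The inflammatory mediators showed no common direction. Of 27 tested, 4 were higher and 4 lower, close to the background in each direction. Inserts 1 to 3 alone gave 6 higher and 2 lower (median 0.49), and inserts 4 to 6 alone gave 3 higher and 7 lower (median -1.30). Il1a, an interleukin stored in epithelial cells, ranged from 281 to 1155 (median 367) in female and 7.13 to 25.5 (median 15.2) in male libraries, a difference of 4.89 ± 0.39 (adjusted p = 1.44e-06). The interleukin-1 receptor antagonist Il1rn (1.57 ± 0.26), Il18 (0.99 ± 0.19) and the neutrophil-attracting chemokine Ppbp (1.88 ± 0.47) were higher. Il24 (-3.60 ± 0.73), Lif (-2.27 ± 0.34), the prostaglandin synthase Ptgs2 (-2.0 ± 0.59) and Cxcl16 (-0.94 ± 0.23) were lower. Ppbp differed by 0.63 in inserts 1 to 3 and by 3.12 in inserts 4 to 6, and Ptgs2 was not called by edgeR (adjusted p = 0.121). H2-Ab1, a class II antigen-presenting chain, was the 1 of 13 antigen presentation genes that was called, at 206 to 716 (median 317) in female and 3.96 to 32.4 (median 24.1) in male libraries, a difference of 4.22 ± 0.46. Of 37 interferon response genes, Bst2 (-1.34 ± 0.37) and Ifi27 (-0.51 ± 0.16) were lower and none was higher, while without female smoke insert 4 there were 2 higher and 2 lower and the median moved from -0.25 to 0.01. The Ifi27 call was lost without male smoke insert 1 or female smoke insert 5.

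Cell division genes were higher in female cells in 22 of 44 tested and lower in none, with a median of 1.19. The background was 15.9% higher and 14.1% lower. Top2a, which untangles DNA, ranged from 2051 to 5870.0 (median 3335) in female and 336 to 1804 (median 1445) in male libraries, a difference of 1.76 ± 0.43 (adjusted p = 0.00807). Mki67, the usual proliferation marker, ranged from 1743 to 4964 (median 3458) in female and 285 to 1789 (median 1335) in male libraries, a difference of 1.78 ± 0.48, and its groups overlapped. Ccnb2 (2.23 ± 0.57), Cenpa (2.12 ± 0.58), Birc5 (2.03 ± 0.56), Bub1b (1.93 ± 0.48) and Plk1 (1.92 ± 0.55) act in chromosome segregation and were higher. The replication genes Mcm2 to Mcm7 and Pcna were not called. The list's level, the mean log2 value of its members relative to the 12-library mean, was 1.70 in female insert 4 and -0.28 to 1.05 in the other female inserts, and it was -1.62 and -1.39 in male inserts 3 and 2 against -0.27 to 0.11 in the other male ones. The count was 20 in inserts 1 to 3 alone, 23 in inserts 4 to 6 alone and 17 to 25 with single libraries left out. In air 2 members were higher and 2 lower, but no member passed the test of the difference between smoke and air.

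Targets of p53 ran the other way, with 15 of 23 lower in female cells, 1 higher and a median of -0.59. The background was 14.1% lower and 15.9% higher. Cdkn1a (mm10 chromosome 17, 29090979 to 29100722), the cell cycle inhibitor p21, ranged from 7008 to 10260.4 (median 7941) in female and 12152 to 20849 (median 13226) in male libraries, a difference of -0.78 ± 0.15 (adjusted p = 0.00152). Mdm2, the ligase that limits p53, ranged from 1411 to 2149 (median 1711) in female and 2776 to 5559 (median 3659.8) in male libraries, a difference of -1.15 ± 0.18. The groups did not overlap for either gene. The growth factor Gdf15 (-1.90 ± 0.38), the death receptors Fas (-1.42 ± 0.29) and Tnfrsf10b (-1.30 ± 0.18), Ccng1 (-0.99 ± 0.16), Trp53inp1 (-1.05 ± 0.17), Aen (-0.59 ± 0.10) and Trp53 itself (-0.44 ± 0.12) were lower as well. Perp was the exception at 32206 to 58104 (median 34189) in female and 10311 to 17732 (median 12629) in male libraries, a difference of 1.53 ± 0.19, and it is also a desmosome component of stratified epithelium. The list had 16 lower without female smoke insert 4 and 15 lower in air.

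Ion and water transport genes were called in 12 of 17 cases, 5 higher and 7 lower, in a background of 15.9% and 14.1%. The 3 subunits of the epithelial sodium channel were all lower in female cells. Scnn1a (mm10 chromosome 6, 125321340 to 125344942) ranged from 1237 to 4622 (median 2401) in female and 10141 to 22265 (median 16152) in male libraries, a difference of -2.66 ± 0.28 (adjusted p = 1.66e-05). Scnn1g ranged from 48.2 to 152 (median 99.5) in female and 447 to 1042 (median 851) in male libraries, a difference of -3.07 ± 0.27, and Scnn1b ranged from 11.8 to 77.6 (median 40.1) in female and 77.6 to 147 (median 141) in male libraries, a difference of -1.69 ± 0.38. The water channel Aqp5 (-2.96 ± 0.43), the bicarbonate cotransporter Slc4a4 (-2.24 ± 0.15), the sodium pump subunit Atp1b1 (-1.42 ± 0.25) and the potassium channel Kcnq1 (-0.85 ± 0.25) were lower too. Higher in female cells were the anion exchanger Slc26a4 (pendrin), at 219 to 1517 (median 1169) in female and 0.883 to 91.9 (median 39.8) in male libraries, a difference of 5.13 ± 0.94, and the carbonic anhydrases Car12 (3.95 ± 0.24) and Car2 (1.10 ± 0.31), with the scaffold Slc9a3r1 (0.75 ± 0.09). Of 20 tight junction genes, 3 were higher and 5 lower, in a background of 15.9% and 14.1%. Cldn6 (-4.45 ± 1.06) and Pard6b (-0.96 ± 0.20) were lower, and the calls of Cldn4, Cgn, F11r and Cldn23 were each lost without several single libraries. Under library-total scaling this list had 0 higher and 7 lower.

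Secretory cell genes divided by insert as well as by sex. Of 20 club and secretory cell genes, 3 were higher and 6 lower, in a background of 15.9% and 14.1%, with a median of -0.16. Inserts 1 to 3 alone gave 6 higher and 2 lower (median 0.69), and inserts 4 to 6 alone gave 1 higher and 7 lower (median -1.20). Besides Scgb1a1, the secretoglobin Scgb3a2 (-3.03 ± 0.59), the surfactant protein Sftpd (-1.98 ± 0.35) and the haemoglobin-binding Hp (-1.88 ± 0.55) were lower. Calls of Scgb3a1 (-3.40 ± 1.09, adjusted p = 0.0311) and Bpifa1 (-3.26 ± 1.16, adjusted p = 0.0493) were lost without female insert 5 or any 1 of male inserts 2 to 6, and that of Bpifa1 also without female insert 1 or 6. The antibacterial lectin Reg3g was higher, at 1106 to 5967 (median 2939.7) in female and 48.6 to 479 (median 224) in male libraries, a difference of 3.92 ± 0.56. Of 9 goblet cell genes, the mucin-folding protein Agr2 (2.99 ± 0.33) and the lectin Itln1 (3.10 ± 0.73) were higher, and the mucin Muc5b (-3.01 ± 0.81) and Clca1 (-1.35 ± 0.35) were lower. This list also turned with the inserts, from 5 higher and 1 lower in inserts 1 to 3 alone (median 1.01) to 1 higher and 3 lower in inserts 4 to 6 alone (median -1.39).

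Motile cilia genes did not separate the sexes in all 12 libraries. None of 36 was called by limma, 3 were called by edgeR and 5 by DESeq2, all higher, and the median was 0.31. Female smoke insert 4 had a list level of -4.61, against 0.09 to 2.39 in the other female inserts, and male insert 1 had -2.62, against -0.23 to 0.94. Without female insert 4, 8 were higher and none lower, with a median of 1.32. The median was 2.16 in inserts 1 to 3 and -1.62 in inserts 4 to 6, which include female insert 4. Without male insert 1 it was -0.24. In inserts 5 and 6 the list level was 0.32 and 0.87 in female and 0.94 and 0.24 in male libraries. Whether the negative median of inserts 4 to 6 rests on female insert 4 was not tested. Of 13 regulators of multiciliated fate, 4 were higher, and 9 without female insert 4, but 2 without female insert 1, 2 or 3 or male insert 4 or 6. Over all genes 15.9% were higher, and 20.2% without female insert 4. Inserts 1 to 3 alone gave 8 higher (median 2.57), and inserts 4 to 6 alone gave 1 (median 0.01). Female insert 4 had a level of -2.36 for this list, against 0.53 to 2.37 in the other female inserts. Trp73, a p53 relative needed for multiciliated cells, ranged from 296 to 759.5 (median 466) in female and 79.5 to 236 (median 173) in male libraries, a difference of 1.68 ± 0.31 (adjusted p = 0.00132), and was the member without overlap.

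**Figure D3:**
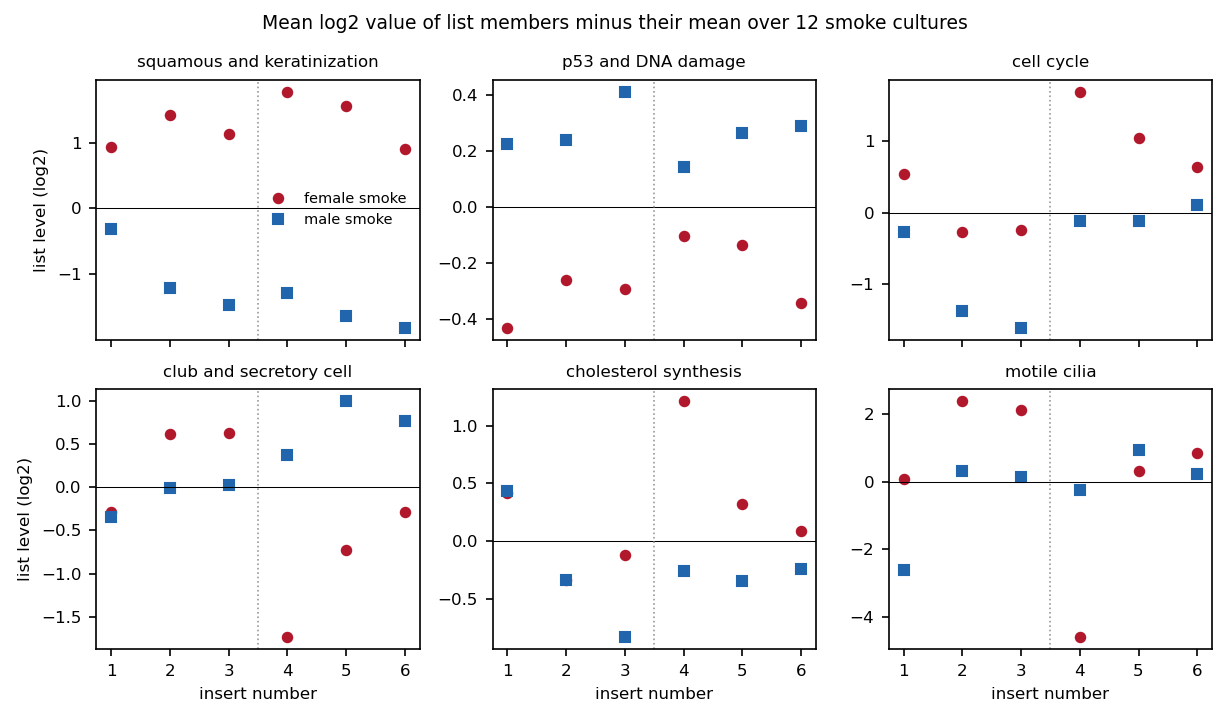
Level of 6 gene lists in each of the 12 smoke libraries by insert number, as the mean over members of log2(normalised count + 1) minus the gene's mean over these libraries, with a dotted line between inserts 3 and 4. The squamous list is at 0.90 to 1.77 in female and at -1.81 to -0.31 in male libraries, and the motile cilia list is at -4.61 in female insert 4.

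Enzymes that handle smoke chemicals differed gene by gene. Of 16 phase I enzymes, 3 were higher and 5 lower, with 5 and 0 in inserts 1 to 3 alone (median 0.29) and 3 and 5 in inserts 4 to 6 alone (median -1.13). Cyp2a5, a cytochrome P450 that metabolises nicotine, ranged from 1633 to 9359 (median 4858) in female and 185 to 799.9 (median 331) in male libraries, a difference of 3.60 ± 0.46 (adjusted p = 7.93e-05). Cyp4b1, a P450 of airway cells, ranged from 317 to 1861 (median 663) in female and 2409.8 to 7255 (median 4448) in male libraries, a difference of -2.64 ± 0.46. The aldehyde oxidase Aox1 (-1.80 ± 0.35), the epoxide hydrolase Ephx1 (-0.84 ± 0.19) and the P450 reductase Por (-0.48 ± 0.13) were lower. The glutathione transferases had 5 higher and 2 lower of 21, and for both lists the background was 15.9% higher and 14.1% lower. Gsto1 ranged from 180400.0 to 277427 (median 236835) in female and 40643 to 106463 (median 72936) in male libraries, a difference of 1.71 ± 0.28, and Mgst2 (1.78 ± 0.18) and Gsta4 (1.26 ± 0.22) were higher, while Gstm2 (-1.40 ± 0.25) and Mgst1 (-1.31 ± 0.22) were lower. Library-total scaling turned this list to 4 higher and 5 lower.

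For the lists that follow, the background was 15.9% higher and 14.1% lower. The antioxidant genes of the NRF2 list had 8 higher and 6 lower of 28, and 4 higher and 7 lower under library-total scaling. The counts were 1 and 7 in inserts 1 to 3 alone and 5 and 2 in inserts 4 to 6 alone. Besides Gpx3, the haem-degrading Hmox1 was lower, at 469 to 1085 (median 583) in female and 1019 to 8397 (median 1879) in male libraries, a difference of -1.67 ± 0.45, as were Txnrd1 (-0.93 ± 0.20), Osgin1 (-0.82 ± 0.16) and the ferritin light chain Ftl1 (-0.87 ± 0.25). Cat (0.78 ± 0.17), Gpx2 (0.73 ± 0.17), Tkt (0.69 ± 0.17), Taldo1 (0.54 ± 0.15) and Gsr (0.52 ± 0.13) were higher. Of 9 aryl hydrocarbon receptor targets, 3 were higher and 2 lower, and Cyp2s1 (1.30 ± 0.25) and the receptor Ahr (-0.75 ± 0.22) kept their calls with every single library left out. Cholesterol synthesis had 10 higher and 1 lower of 23, of which Dhcr7 ranged from 1497 to 2312 (median 1896) in female and 369 to 895 (median 708) in male libraries, a difference of 1.54 ± 0.19. The count of higher members was 6 without male insert 2, 3, 5 or 6, 8 without female insert 4, and 1 and 3 in inserts 1 to 3 and 4 to 6 alone. Insig1, which restrains the pathway, was lower, with a difference of -1.21 ± 0.31.

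Transforming growth factor beta and mesenchymal genes had 3 higher and 5 lower of 17. The ligand Tgfb1 was higher, at 1251 to 1928 (median 1707) in female and 671 to 963 (median 827) in male libraries, a difference of 1.0 ± 0.13, and the receptors Tgfbr2 (-0.93 ± 0.12) and Tgfbr1 (-0.59 ± 0.17) and the signal carrier Smad3 (-1.10 ± 0.14) were lower. Mmp2 (2.13 ± 0.29) and the transcription factor Twist1 (3.16 ± 0.32) were higher, the latter at 19.2 to 40.8 normalised counts in female libraries. Among 14 immediate early and AP-1 genes, Fos (-1.16 ± 0.23) and Fosb (-1.79 ± 0.52) were lower and Fosl2 (1.08 ± 0.18) and Klf4 (0.85 ± 0.20) higher. Of 9 steroid genes, 2 were higher and 1 lower, in a background of 15.9% and 14.1%. Hsd17b2, which inactivates sex steroids, ranged from 604 to 1348 (median 669) in female and 23.5 to 67.1 (median 59.8) in male libraries, a difference of 3.90 ± 0.27, and Srd5a1 (0.88 ± 0.18) was also higher. Glycolysis had 1 higher and 5 lower of 18, the actin list 2 and 3 of 23, the unfolded protein list 4 and 0 of 24, and the heat shock list 1 and 1 of 16, where Cryab (-2.15 ± 0.42) was the lower gene. The heat shock counts were 0 higher and 3 lower in inserts 1 to 3 alone and 3 higher and 0 lower in inserts 4 to 6 alone. Among 46 respiratory chain genes, Ndufa4 (1.20 ± 0.18) and Cox8a (0.43 ± 0.11) were higher and none was lower, and without female smoke insert 4 there were 5 higher and 2 lower. None of 28 ribosomal protein genes was called by limma or edgeR and 1 was by DESeq2, and without female smoke insert 4 limma called 1 higher and 1 lower. None of 6 ionocyte genes was called by limma, edgeR or DESeq2, and their median was 0.44 in inserts 1 to 3 alone and -0.74 in inserts 4 to 6 alone, where 1 was lower.

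Genes that set position along the body axis were singled out after their values were seen, because Hoxc4, Hoxc5 and Hoxc6 were among the 10 highest, so they are given as levels with no test of the family. Hoxc6 (mm10 chromosome 15, 103009562 to 103011881) ranged from 55.3 to 239.7 (median 84.5) in female libraries and held no reads in 6 of 6 male smoke libraries, so it was at least 233-fold higher against a floor of 3 reads over the group. Hoxc5 ranged from 461 to 1241 (median 628) in female and 3.17 to 7.39 (median 4.20) in male libraries, Hoxc4 from 877 to 1409.7 (median 1049) in female and 4.05 to 23.3 (median 13.8) in male libraries, and Hoxc8 from 16.7 to 71.9 (median 23.3) in female libraries with reads in 1 male one. These 4 were the Hoxc genes tested, the groups did not overlap for any of them, and the same held in air. The 4 lie on chromosome 15 between 102990539 and 103036852, and strandedness of the counts is not given, so reads of overlapping or antisense transcripts there cannot be told apart. The other clusters did not share this order. Of 7 Hoxa genes tested, Hoxa4 and Hoxa7 were higher in female cells without overlap. Of 6 Hoxb genes, Hoxb3 and Hoxb7 were higher in male cells without overlap, where Hoxb7 stood at 12.1 to 23.7 against 1.04 to 6.39. Over all genes the female libraries lay above in 9.61% and the male in 8.02%. In air Hoxa4, Hoxa7 and Hoxb7 separated in the same direction, and the groups overlapped for Hoxb3. No Hoxd gene reached a mean of 10.

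**Figure D4:**
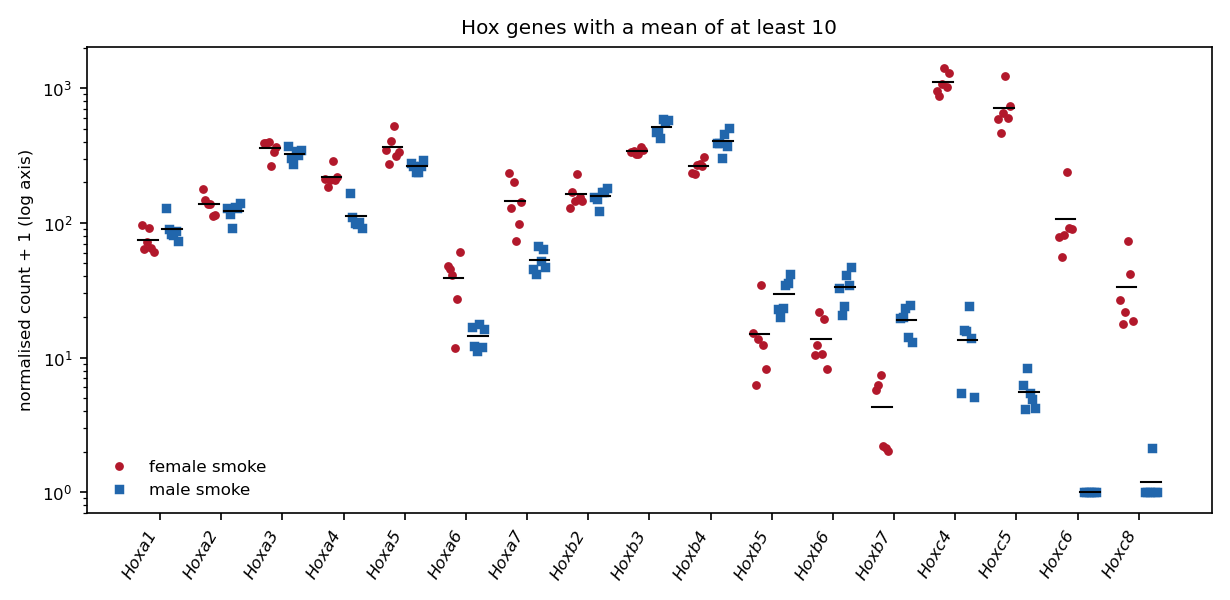
Normalised counts plus 1 on a log axis for the Hox genes with a mean of at least 10, 1 point per smoke-exposed library, with lines at the group means. The female points lie above the male ones for each of the 4 Hoxc genes, with Hoxc6 at 0 in 6 of 6 male libraries, while the groups overlap for most Hoxa and Hoxb genes.

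Other regional transcription factors, also picked after their values were seen, differed in both directions. Nkx2-1, which marks lung and ventral tracheal endoderm, ranged from 121 to 319 (median 236) in female and 1557 to 2727 (median 2258) in male libraries, and the lowest male library was several-fold above the highest female one. Foxa2 ranged from 2.28 to 32.7 (median 11.1) in female and 17.7 to 83.1 (median 46.5) in male libraries with some overlap, and Tbx3 from 10.6 to 34.4 (median 17.4) in female and 52.4 to 102 (median 78.2) in male libraries with none. Pitx1, a hindlimb and oral ectoderm factor, ranged from 9915 to 14576 (median 12841) in female and 1397 to 2363 (median 2067) in male libraries, and Pax9, a factor of the pharyngeal and oral lining, from 1904 to 4579 (median 3857) in female and 675 to 1277 (median 1056) in male libraries. Foxe1, known from thyroid and palate, ranged from 192 to 309.9 (median 257) in female and 61.0 to 119 (median 93.5) in male libraries. Pitx1, Pax9 and Foxe1 thus stood above every male library in female cells, while Nkx2-1, Gata6 and Tbx3 stood below. The same differences in air were 2.42 for Pitx1, 1.39 for Pax9, -3.51 for Nkx2-1 and -3.41 for Gata6.

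Most markers of cells other than epithelium were low, but a few were abundant and differed. Endothelial markers averaged under 10 in 7 of 7 cases, with Emcn at 0 in 12 of 12 libraries and summed levels of 10.8 to 25.6 in female and 13.3 to 49.9 in male libraries. Of 12 fibroblast markers, 4 were tested, Lum was at 0 in 12 of 12 libraries, and the sums were 810.0 to 1384 in female and 344 to 692 in male libraries, which did not overlap. Fbln1, at 631 to 1285 (median 924) in female and 226 to 575 (median 446) in male libraries, was the fibroblast marker called, with a difference of 1.21 ± 0.25, and made up most of these sums. Of 13 leukocyte markers, 7 were under 10 in every smoke library and Tyrobp was at 0 in 12 of 12. Their sums, made up mainly of Lyz2 and Cd14, were 13383 to 49670 in female and 9748 to 65822 in male libraries, and overlapped. Of 4 leukocyte markers tested, 1 was higher and 1 lower, and 3 of the 4 differences were negative (median -0.45). Itgam, an integrin of myeloid cells, was higher, at 1016 to 3662 (median 2098) in female and 85.6 to 436 (median 149) in male libraries, a difference of 3.54 ± 0.40. Cd68, a lysosomal protein of macrophages, was lower, at 115 to 343 (median 225) in female and 245 to 460.3 (median 368) in male libraries, a difference of -0.71 ± 0.23 (adjusted p = 0.0348), with overlap. The part of these cells in the differences above was not tested.

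Most genes called in smoke were also called in air, where the 6 female and 6 male libraries are separate from the smoke ones but may share their cell preparations. In air 4973 genes were called (38.5%), 19.5% higher and 19.0% lower, and 2825 genes were called with the same sign in both, which is 72.8% of the smoke calls and 56.8% of the air calls. Another 9 were called with opposite signs, and 1048 smoke calls were not called in air, which does not show that they differ between air and smoke. Of the 2825, 1237 had the larger difference in smoke. Tgm3 differed by 9.56 in air, Sim2 by 6.98 and Pi15 by 6.98, the 3 highest that the sexes had in both conditions. The 3 lowest were Elfn1 (-4.57 in smoke and -5.06 in air), Pkhd1, the fibrocystin gene (-4.27 and -5.31), and Serpinb9b (-4.51 and -4.48). Serpinb9b, one of a family of close copies, varied with the inserts used, at -7.05 in inserts 1 to 3 and -1.97 in inserts 4 to 6. Krt13 (5.0), Ly6d (6.51) and Hsd17b2 (4.68) differed in air by at least as much as in smoke, and none of the 3 passed the test of the difference between the conditions. The squamous list had 15 higher and 1 lower in air, with a median of 1.0.

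**Figure D5:**
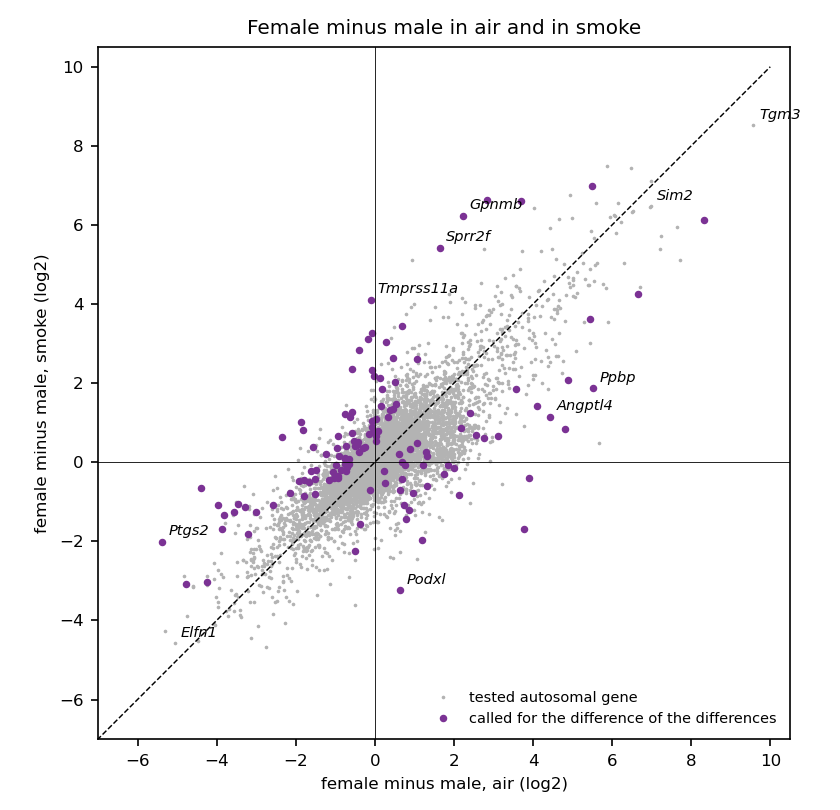
Female minus male difference (log2) in smoke against that in air for 12933 autosomal genes, 1 point per gene, with genes past the interaction test in colour. Most leading genes lie near the diagonal, and Tmprss11a lies at -0.08 in air and 4.11 in smoke.

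A test of the difference between the smoke and air comparisons called 131 genes (1.01%), of which 89 had the higher value in smoke and 42 the lower, and 1679 genes had an unadjusted p under 0.05. The count was 410 without female air insert 1 and 801 without that insert and female smoke insert 4, both of which trend with transcript length. Of the 131, 84 were also called in smoke, among them 33 that were not called in air, 42 with the same sign in both and 9 with opposite signs. Spink5, a serine protease inhibitor of stratified epithelium, ranged from 3878 to 16466 (median 7275) in female and 254 to 1531 (median 1142) in male libraries under smoke. In air its groups were close, at 2325 to 4969.9 in female air and 3348 to 4469.5 in male air, and the interaction was 3.29 ± 0.50 (adjusted p = 0.00236). Tmprss11a, a membrane serine protease of airway and oral lining, ranged from 304 to 662 (median 429) in female and 2.77 to 45.3 (median 35.2) in male libraries. In air it stood at 13.1 to 137 in female air and 33.9 to 59.6 in male air, and the interaction was 4.20 ± 0.83 (adjusted p = 0.0135). Sprr2f had an interaction of 3.78 ± 0.64 and air levels of 2.18 to 7.94 in female air and 0 to 2.21 in male air. Gpnmb, a lysosomal and membrane glycoprotein, ranged from 466 to 3034 (median 2429) in female and 7.95 to 54.4 (median 28.8) in male libraries, with an interaction of 4.01 ± 0.74. Of the 31 squamous genes, 5 passed the interaction test.

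Other genes had a smaller or opposite difference under smoke. Ppbp differed by 5.52 in air, at 747 to 2254 in female air and 18.6 to 54.1 in male air, and by 1.88 in smoke, an interaction of -3.64 ± 0.61 (adjusted p = 0.00448). Ptgs2 was lower in female cells in both, with differences of -5.37 in air and -2.0 in smoke, an interaction of 3.36 ± 0.73, and female smoke insert 2 (4862) stood well above the other female inserts (359.8 to 1189). Podxl, a sialylated surface protein, was at 1.20 to 18.8 (median 8.51) in female and 27.7 to 527 (median 56.9) in male libraries under smoke and at 17.6 to 47.7 in female air and 13.4 to 21.5 in male air, an interaction of -3.88 ± 0.80 (adjusted p = 0.0167). Male insert 1 held 527 of it, and the other male inserts 27.7 to 101. Angptl4, an inhibitor of lipoprotein lipase, had 1.15 in smoke and 4.44 in air, the phospholipase Plb1 2.08 and 4.89, and the guanylyl cyclase receptor Gucy2g 1.41 and 4.09. For these 3 the female excess was thus larger in air, though the Gucy2g interaction had an adjusted p of 0.0637 under quantile scaling.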

How the data were processed

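The values are a signal, namely gene counts that the authors had normalised by library with DESeq2 before deposit, in 1 column per library. In 23 of the 24 columns 100.0% of values were whole multiples of 1 step (tolerance 0.001 reads plus 1e-06 of the count) and were taken as whole reads, and male smoke insert 5, whose step is near 1, was left out of the tests on reads. Tools named in the submitters' processing notes are HTSeq, DESeq2, Trimmomatic 0.38.0 and FastQC 0.11.9, with the builds mm10 and GRCm38. The sources used here give neither the aligner nor the strandedness. Gene positions, a unit classed as other, are from the deposited mm10 refGene annotation, and promoters are from RefSeq (GRCm38.p6).

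Values were taken as log2(normalised count + 1) and tested two-sided with limma 3.58.1 (eBayes with a trend, R 4.3.3) over the 12 smoke libraries. Benjamini-Hochberg adjustment ran over all 13350 genes with a mean of at least 10, X and Y genes included, and autosomal genes are reported. The pseudocount understates differences of low genes. Air and the interaction came from 1 fit over 24 libraries. The script was tested on simulated data. Reads carry no molecular identifiers, so floors (3 reads over a group) cover counting error only. Tables were handled in Python 3.11.15 with pandas 2.3.3 and drawn with matplotlib 3.10.9.

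Members and gene lists were chosen with earlier results of these data known. The rule for named genes takes the 10 highest and 10 lowest differences among called genes with no overlap that averaged 50 or more in the higher group and kept their call without female smoke insert 4. It adds the up to 2 members of each list with the largest called difference, the 5 highest and 5 lowest interaction values, and the 3 highest and 3 lowest genes called in both air and smoke. Predicted gene models were not named, and other list members are given as examples. Alternatives were other scalings, filters, pseudocounts, library weights, a transcript length correction, single libraries left out, the insert number as a block, inserts 1 to 3 or 4 to 6 alone, and edgeR 4.0.16 and DESeq2 1.42.0 on the recovered reads.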

Additional observations from a re-analysis of the deposited data

Results flagged for a closer look

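A library's level of a gene list is the mean over members of log2(normalised count + 1) minus the gene's mean over the 12 smoke libraries. In 9 of 68 list levels tested, 1 insert lay far from the other 5 of its group, where chance gives about 1 in 20. Female smoke insert 4, which trends with transcript length, did so in 4 lists, with -4.61 for motile cilia, 0.48 for heat shock, 0.85 for oxidative phosphorylation and 1.07 for ribosomal proteins. Male smoke insert 1 stood at -2.62 for motile cilia, male smoke insert 3 at -0.61 for basal cell genes and male smoke insert 2 at 0.35 for glutathione transferases. Female smoke insert 5 stood at -0.86 for inflammatory mediators and female smoke insert 2 at 0.63 for immediate early and AP-1 genes.

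In 10 named genes the female minus male difference in smoke differed from that in air by limma's interaction test. The interaction was 4.20 for Tmprss11a, 4.01 for Gpnmb, 3.78 for Sprr2f, 3.36 for Ptgs2 and 3.29 for Spink5. It was -3.88 for Podxl, -3.64 for Ppbp, -3.29 for Angptl4, -2.80 for Plb1 and -2.68 for Gucy2g.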

How the results depend on the processing

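The number of genes called in smoke ran from 3302 to 5021 with single libraries left out, with 1789 to 2606 higher in female cells and 1513 to 2415 lower. Inserts 1 to 3 alone gave 3543 calls (1901 higher and 1642 lower). Inserts 4 to 6 alone, which include female smoke insert 4, gave 1940 (1068 and 872). Both used the same smaller number of samples. Array quality weights gave 6108 (3123 and 2985). Scaling to the library total gave 3114 lower. The cause of these changes was not tested. edgeR called 3462 and DESeq2 4245. The interaction count of 131 became 801 without female air insert 1 and female smoke insert 4, and 410 without female air insert 1, which was chosen after seeing the data. The air count was 5742 without female air insert 1. Deviations of same-numbered female and male smoke inserts had correlations from -0.140 to 0.293, and those of differently numbered ones from -0.651 to 0.608. The wide second range means that these values cannot decide whether the numbers pair samples, and pairing of air with smoke inserts was not tested. The insert number as a block gave 3056 calls in smoke, 4889 in air and 106 for the interaction, and 3401 in smoke together with the length correction. Over 87 named genes and their alternatives, 2475 of 2600 values kept direction and call, 125 lost the call and none changed sign. The named genes were chosen as called in these same libraries, so this retention follows in part from the choice. Of these 125, 19 fell to inserts 4 to 6 alone, 16 to inserts 1 to 3 alone and 14 to testing without a filter, and 55 genes never lost the call. The share called changed little with level, at 28.2% for means of 10 to 50 and 30.4% for the highest means, while the median SE fell from 0.38 to 0.17.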
